A study of Arabidopsis thaliana with 14 samples.

Results

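Growing inflorescences of male-sterile Arabidopsis thaliana were compared with growing inflorescences of fertile plants, on 1 array each of the 14 arrays in the series. The members were chosen by sample title, and all 21195 loci with a value were compared. The sterile plants were ms1-1 homozygous and the fertile plants were labelled ms1-1 co-segregant, both in the Landsberg erecta background. The labels do not say whether co-segregant plants carried the allele. Each array held RNA of whole inflorescences from primary and secondary branches, pooled from 3 to 10 plants, with flowers up to about floral stage 10. Plants grew under 16 h of light and 8 h of dark, and their ages are not given in the labels. The other 8 inflorescence arrays came from arrested inflorescences and from inflorescences 6 h, 24 h and 48 h after fruits were removed from arrested plants, with 2 arrays each. The same pair of plant types was also sampled as laser-dissected meristems, with 1 array each.

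MS1 encodes a PHD-finger protein that acts in the tapetum, the innermost cell layer of the anther, after meiosis. The tapetum feeds the developing microspores, makes precursors of the outer pollen wall (sporopollenin), and finally deposits the pollen coat, a mix of lipids, oleosins, lipases and phenolamides. Plants without MS1 function make no viable pollen and therefore set no seed. The series asks how seeds act on the growth of the mother plant, and a sterile plant is one that grows without them. The value table used here holds no entry for MS1, and its level therefore gives no check of the genotype labels.

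With 1 array a side the comparison has no replicate check, and no test was made. Differences are given as sterile minus fertile on the log2 scale of the deposited values, and a difference of 2 is 4-fold. Differences between the 2 arrays of each replicated inflorescence group serve as a measure of spread. Array medians lay at 7.45 in the sterile and 7.32 in the fertile inflorescence, within the range of 7.27 to 7.45 over the 10 inflorescence arrays. The median difference over all loci was 0.25, and 68.2% of loci were higher in the sterile array. Quantile normalization brought that median to 0.06 and centring on array medians to 0.12, so differences of single genes are best read against it. The ubiquitin control probes gave a 3′ minus 5′ difference of 0.93 in the sterile and 0.57 in the fertile inflorescence, against 0.24 to 0.94 in the other 8 inflorescence arrays. Its part in the differences below was not tested.

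The largest differences were lower values of anther transcripts in the sterile inflorescence. At least 4-fold differences were found at 317 loci (1.5% of all), of which 253 were lower in sterile plants (1.19%) and 64 were higher (0.302%). By the deposited values, low ones included, the counts at 8-fold or more were 102 lower and 13 higher, at 16-fold 57 lower and 1 higher, and at 32-fold 30 lower and 0 higher. At 2-fold, 903 loci were lower (4.26%) and 1294 higher (6.11%).

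The titles of the sterile, fertile and 1 arrested array carry a code beginning with r, and those of the other arrested array and of all fruit removal arrays a code beginning with g. What the code stands for is not stated, and its part in levels set side by side across these arrays was not tested. The 4-fold counts of the comparison stand close to the widest replicate pair, the arrested one, which is the only replicate pair holding both codes. Between the 2 arrested arrays 312 loci differed at least 4-fold (1.47%), against 11 (0.0519%) between the 6 h arrays, 15 (0.0708%) between the 24 h arrays and 81 (0.382%) between the 48 h arrays. At 2-fold the same pairs differed at 1937 loci (9.14%), 126 loci (0.594%), 365 loci (1.72%) and 631 loci (2.98%). The sterile and fertile arrays correlated at 0.934 across loci, and the replicate pairs at 0.947, 0.991, 0.982 and 0.975 in the same order of groups. Locus by locus, 227 of the 253 lower loci (1.07% of all loci) and 58 of the 64 higher loci (0.274% of all loci) differed by more than any replicate pair did at that locus. Of the 253 lower loci, 235 had a fertile value above the array median. Choosing loci by a higher fertile value favours this count, and it does not cover the sterile value. With values under the 25th percentile raised to it, 220 of the 253 stayed at least 4-fold lower. Of the 64 higher loci, 40 had a sterile value above the array median, and 6 were listed at 0 in the fertile array, for which no fold is given.

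**Figure D1:**
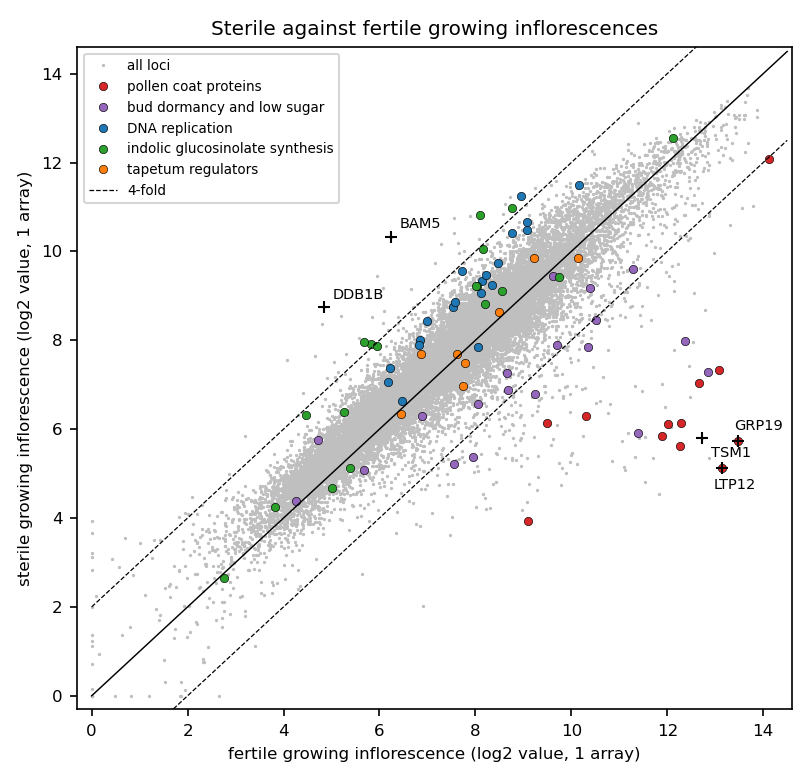
Each point is 1 locus, with its log2 value in the fertile inflorescence on the horizontal axis and in the sterile inflorescence on the vertical axis (1 array each), and dashed lines mark 4-fold differences. Pollen coat genes such as LTP12 and GRP19 lie far below the lower line, while BAM5 and DDB1B lie above the upper line.

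A set of 28 gene lists gave 466 members with a value. List medians ran from -5.82 for pollen coat proteins to 1.23 for DNA replication genes, beside 0.25 for all loci. The 3 lists lowest in the sterile inflorescence were pollen coat proteins, phenolamide synthesis (-3.40) and bud dormancy with low-sugar response (-1.80). The 3 highest were DNA replication, indolic glucosinolate synthesis (1.16) and aliphatic glucosinolate synthesis (0.81). Medians near 0 turned sign with the scaling for 3 lists. The auxin median of 0.02 became -0.18 under quantile normalization, the cytokinin median of 0.25 became -0.05 and the senescence median of 0.15 became -0.04.

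**Figure D2:**
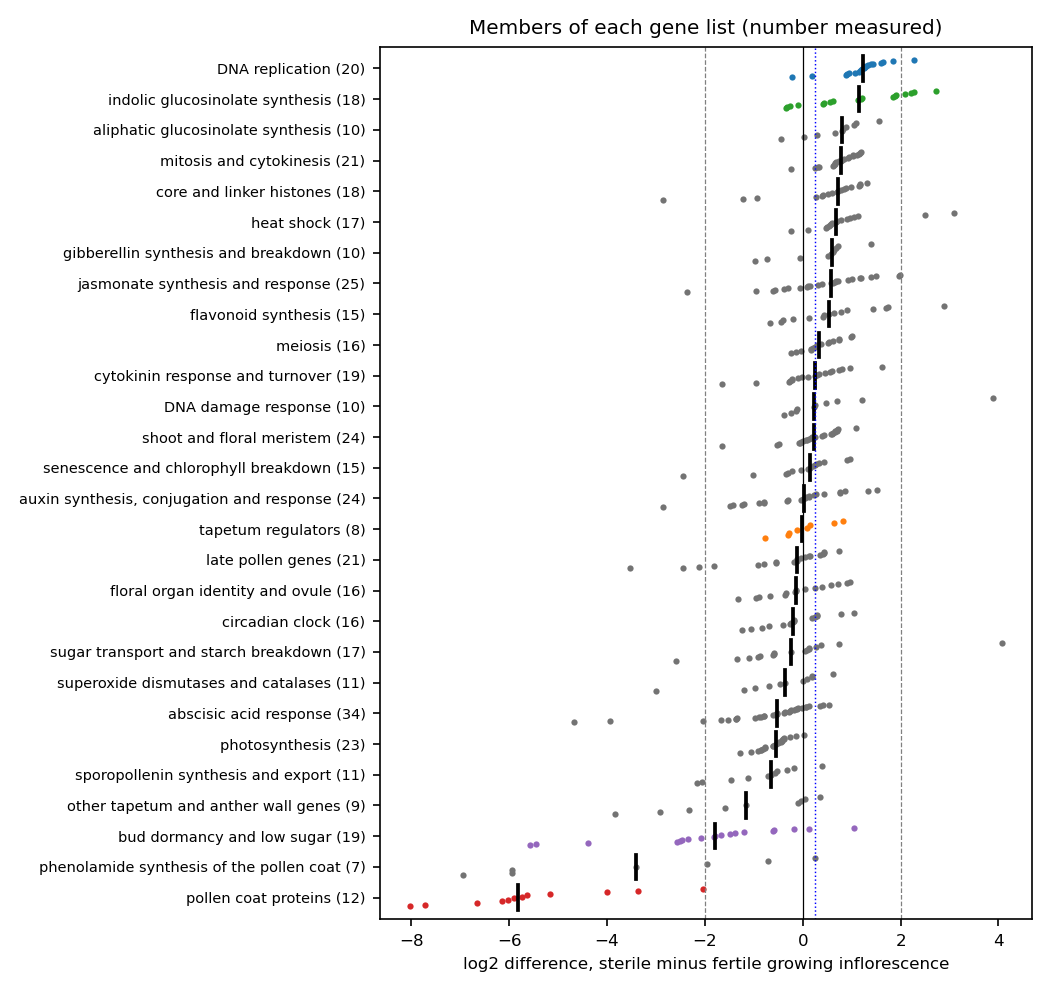
Each point is 1 list member, placed by its log2 difference (sterile minus fertile inflorescence), with the number of measured members in brackets, a black bar at the list median, a dotted line at the median of all loci (0.25) and dashed lines at 4-fold. Pollen coat proteins form the far left end and DNA replication and indolic glucosinolate genes the right end.

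Among anther genes, the early regulators measured in the tapetum regulator list were close to equal in both inflorescences. The tapetum regulator list held 14 entries, of which 3 had no value and 3 were left out for their names. None of its 8 measured members differed 2-fold, and their median difference was -0.02. NAC025, a NAC factor not among these 8, read 6.56 in the sterile and 10.81 in the fertile array. Its largest replicate difference was 0.93. MYB99, a MYB factor of the tapetum placed in the phenolamide list, was more than 2-fold lower in the sterile array. AMS, a bHLH factor of tapetum development, read 8.64 in the sterile and 8.50 in the fertile inflorescence. TDF1, a MYB factor that acts before AMS, read 7.69 in the sterile and 6.86 in the fertile array. TEK, an AT-hook protein needed for the inner pollen wall layer, read 9.85 in the sterile and 10.13 in the fertile array. In arrested inflorescences and at 6 h and 24 h, AMS lay between 3.91 and 4.94, so both growing inflorescences stood far above those arrays. MYB80, which acts next to MS1 in the tapetum, read 6.33 in the sterile and 6.45 in the fertile array, both below their array medians.

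Sporopollenin genes were also present in both growing inflorescences, with modest differences. Of 11 members, 4 were at least 2-fold lower in the sterile array and 0 were higher, with a median of -0.64. Here and for the anther genes below, fewer tapetal cells and less RNA per cell cannot be told apart in these bulk samples. ACOS5, the acyl-CoA synthetase at the start of the pathway, read 10.67 in the sterile and 10.84 in the fertile array. CYP704B1, a fatty acid hydroxylase, read 12.00 in the sterile and 11.61 in the fertile array, and CYP703A2, another hydroxylase, 10.23 in the sterile and 10.75 in the fertile array. The polyketide synthases LAP5 and LAP6 differed by -0.32 and -1.12, and the reductases DRL1 and TKPR2 by -0.64 and -0.57. These differences were under or near the spread of the same genes between the 48 h arrays, where LAP6 read 10.03 and 11.32.

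Larger differences in this list belonged to a reductase and to lipid transporters. MS2, a fatty acyl reductase, read 9.24 in the sterile and 11.41 in the fertile inflorescence, a difference of -2.17. ABCG31 and ABCG9, transporters of the pollen coat lipid layer, differed by -2.05 and -1.47, whereas ABCG26, the exporter of sporopollenin precursors, differed by -0.72. All 3 transporters and MS2 read lower in the sterile array. MS2 was between 4.21 and 4.96 in the arrested, 6 h and 24 h arrays, below the sterile value.

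Other tapetum and anther wall genes were lower in part. Of 9 members, 5 were at least 2-fold lower in the sterile inflorescence and 0 higher. KCS15, KCS7 and KCS21, condensing enzymes of very-long-chain fatty acid synthesis, differed by -3.84, -2.91 and -2.33. KCS15 read 5.78 in the sterile and 9.62 in the fertile array. SWEET8, a sugar exporter needed for microspore integrity, differed by -1.58, and ATA1, a tapetal dehydrogenase, by -1.16. QRT3, a polygalacturonase that separates microspores from the tetrad, was near equal at 10.27 in the sterile and 10.36 in the fertile array.

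Genes for the phenolamides of the pollen coat were low in the sterile inflorescence, with 5 of 7 members at least 2-fold lower and a median of -3.40. TSM1, a tapetal methyltransferase, read 5.79 in the sterile and 12.73 in the fertile array, at least 115-fold lower when the sterile value is raised to the floor. The floor used for such bounds is the 25th percentile of all inflorescence values, 5.88. SHT, the spermidine hydroxycinnamoyl transferase, read 5.38 in the sterile and 11.32 in the fertile array. CYP98A8, a hydroxylase of the same pathway, read 5.15 in the sterile and 11.09 in the fertile array. For all 3 genes the sterile value lay near the range of the arrested, 6 h and 24 h arrays, which ran from 4.29 to 5.56 over the 3 genes. CYP98A9 differed by -3.40 and MYB99, a MYB factor of the tapetum, by -1.95. General phenylpropanoid enzymes of the list did not share the difference, with 0.25 for C4H and -0.70 for 4CL1.

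All 12 measured pollen coat protein genes were at least 4-fold lower in the sterile inflorescence, and each differed by more than its largest replicate difference. LTP12, a lipid transfer protein, read 5.12 in the sterile and 13.15 in the fertile array, at least 154-fold lower. GRP19, an oleosin of the coat, read 5.74 in the sterile and 13.47 in the fertile array, at least 193-fold lower. EXL4, an extracellular lipase, read 6.14 in the sterile and 12.29 in the fertile array, and EXL6 differed by -5.90. The sterile values of LTP12 and EXL4 were among those of the arrested, 6 h and 24 h arrays, and that of GRP19 lay just above the highest of them (5.71), while the fertile values of all 3 genes exceeded every other inflorescence array.

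The 6 oleosin genes of this list form 1 cluster on chromosome 5, from GRP14 to GRP20, with 1 further gene between them in the RefSeq table. Their differences ran from -7.73 for GRP19 to -3.37 for GRP16. GRP20 differed by -6.65, GRP17, the most abundant coat oleosin protein, by -5.64, GRP18 by -5.17 and GRP14 by -4.01. All 6 therefore had lower values in the sterile inflorescence. The sterile values of GRP19, GRP20 and GRP18 lay under the floor of 5.88. Raised to the floor, their differences were -7.59, -6.38 and -3.22, so the order of sizes along the cluster depends in part on low values. Probes for such similar genes may share signal.

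Some pollen coat genes kept a signal in the sterile inflorescence. ATA20, a glycine-rich tapetal gene, read 12.09 in the sterile and 14.13 in the fertile array, against 6.02 to 6.52 in the arrested, 6 h and 24 h arrays. Its sterile value was thus among the 48 h values of 12.34 and 11.56. ATA27, a beta-glucosidase of the tapetum, read 7.34 in the sterile and 13.07 in the fertile array, and 5.08 to 5.65 in the arrested, 6 h and 24 h arrays. ATA7, a lipid transfer-like protein, read 5.85 in the sterile and 11.88 in the fertile array, with no such remainder.

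Late pollen genes differed at least 2-fold in 4 of 21 cases, all lower in the sterile inflorescence, and the list median was -0.11. AGP6, an arabinogalactan protein of pollen, read 5.31 in the sterile and 8.84 in the fertile array. Its relative AGP11 read 4.80 in the sterile and 6.62 in the fertile array. STP9, a pollen hexose transporter, and MYB101, a factor of the pollen tube, differed by -2.44 and -2.12. Arrested inflorescences had more of these transcripts than either growing inflorescence for AGP6 (11.99 and 12.39) and AGP11 (10.77 and 11.44), but not for STP9 (5.62 and 6.06). BCP1, a gene of pollen and tapetum, read 6.86 in the sterile and 7.41 in the fertile array, against 12.55 and 13.01 in the arrested arrays. Outside this list, PGA4 and sks14 each differed by -4.39 and were also highest in arrest. PGA4 read 12.74 and 13.13 in the arrested arrays, and sks14 read 11.08 and 11.78.

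**Figure D3:**
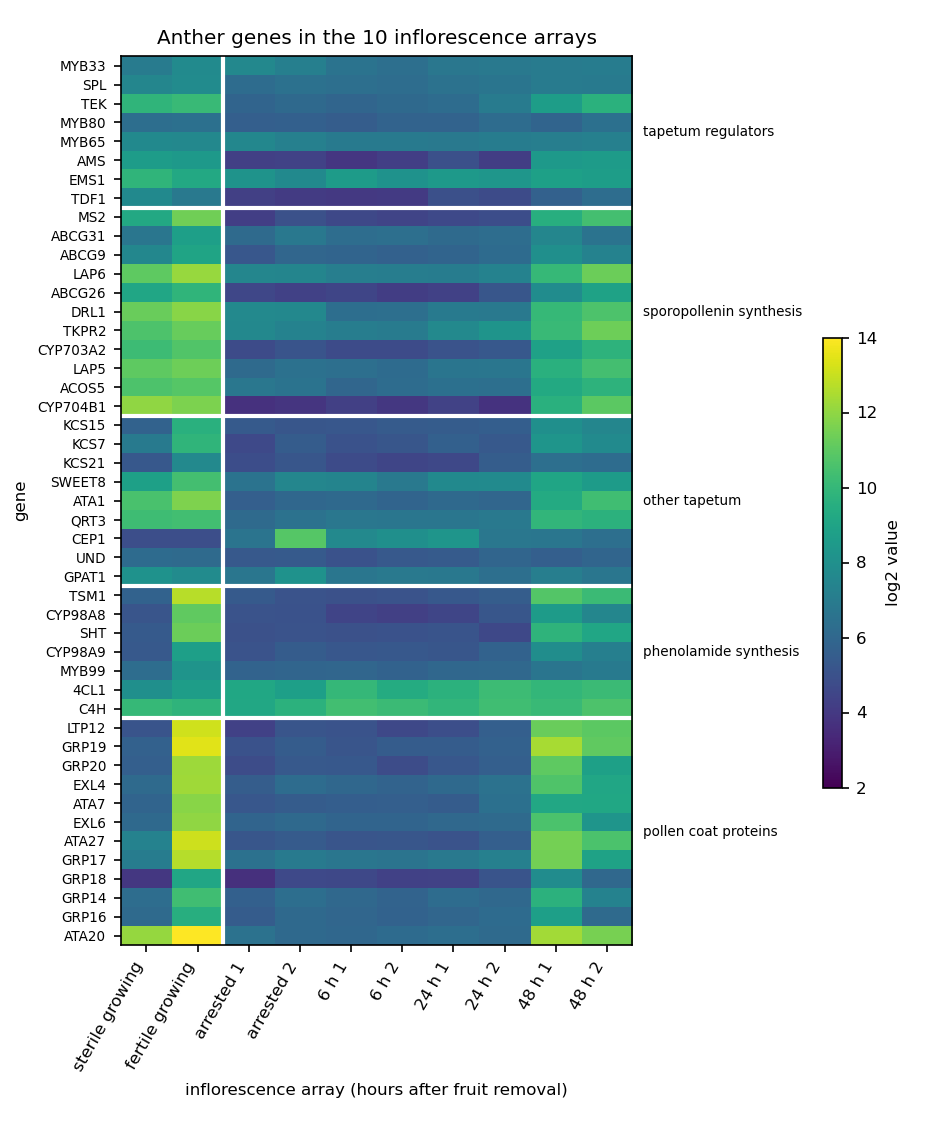
Colour gives the log2 value of each anther gene (vertical axis, grouped by list) in each of the 10 inflorescence arrays (horizontal axis), with the sterile and fertile growing arrays left of the white line. The 8 measured members of the tapetum regulator list differ less than 2-fold between the growing arrays. TSM1, SHT, CYP98A8 and pollen coat genes such as LTP12 and GRP19 are bright in the fertile array and dark in the sterile array.

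The 8 inflorescence arrays outside the comparison split the 253 lower loci. At 45 loci (17.8% of them, against 0.717% of all loci) values were below the array median in the arrested, 6 h and 24 h arrays and above it in both 48 h arrays. Their median level was 6.38 in the sterile and 11.48 in the fertile inflorescence, and 5.25 in arrested, 5.23 at 6 h, 5.55 at 24 h and 9.42 at 48 h. LTP12, TSM1, SHT and MS2 belong to these 45. Another 106 loci (41.9%, against 46.0% of all loci) were above the array median in both arrested arrays. Their median level was 7.45 in the sterile and 10.14 in the fertile inflorescence, with 10.98 in arrested inflorescences and 8.54 to 8.61 after fruit removal. A further 32 loci (12.6%, against 39.4% of all loci) were below the median in all 8 arrays, and 70 (27.7%, against 14% of all loci) had other patterns.

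DRM1, DRM2, HB40, TPS8 and TPS11 of the dormancy list are among the 106. So are genes outside that list, such as AGP6, PGA4, sks14, RAB18, NAP and HIS1-3. The pattern was no more frequent than among all loci, so it does not mark the dormancy genes. In the bud dormancy and low-sugar list, whose members are high in resting buds and in sugar-starved tissue, 14 of 19 were at least 2-fold lower in the sterile inflorescence and 1 was higher. DRM2, a dormancy-associated gene, read 7.28 in the sterile and 12.85 in the fertile inflorescence, a 47.5-fold difference. DRM1, of the same family, read 7.98 in the sterile and 12.36 in the fertile array. For both genes the fertile growing array was as high as the arrested arrays (10.94 and 12.93 for DRM2, 10.72 and 12.45 for DRM1), while the sterile array was near the range after fruit removal (5.28 to 6.78 and 6.86 to 9.24). HB40, a homeodomain factor of bud dormancy, read 5.21 in the sterile and 7.55 in the fertile array, against 8.13 and 8.91 in arrested arrays. Its relatives HB21 and HB53 differed by -1.48 and -0.58.

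Trehalose phosphate synthase-like genes, which respond to sugar, shared this direction. TPS8 read 6.78 in the sterile and 9.24 in the fertile inflorescence, and TPS11 read 8.45 in the sterile and 10.52 in the fertile array. TPS9 and TPS10 differed by -1.80 and -1.39. Each of the 4 genes was higher in the fertile than in the sterile array. Only TPS8 and TPS11 among them differed by more than their largest replicate difference.

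Several genes of this list varied as much between replicate arrays as between sterile and fertile plants. SEN1, a gene induced in the dark, read 5.92 in the sterile and 11.38 in the fertile inflorescence, but 7.18 and 13.37 in the 2 arrested arrays. ASN1, an asparagine synthetase, read 7.84 in the sterile and 10.34 in the fertile array, but 7.03 and 11.85 in the arrested arrays. BT2, a BTB protein that responds to sugar and nitrate, differed by -2.58 between sterile and fertile, and by 6.00 between the arrested arrays. The fertile value of each of these 3 genes thus lay between the arrested arrays. Of the 14 lower members, 6 differed by more than their largest replicate difference. DIN2, a dark-induced glucosidase, had the opposite sign at 1.04, with 5.76 in the sterile and 4.72 in the fertile array.

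Abscisic acid response genes were lower at a few members with large differences. Of 34 members, 8 were at least 2-fold lower in the sterile inflorescence and 0 higher, and 4 of these exceeded the replicate spread. RAB18, a dehydrin induced by abscisic acid, read 5.12 in the sterile and 9.80 in the fertile array, against 6.34 to 8.50 in the other inflorescence arrays. LTI30, a dehydrin of the cold response, read 6.59 in the sterile and 10.52 in the fertile array, against 5.29 to 7.39 elsewhere. The fertile array was the highest inflorescence array for both dehydrins. COR47, another dehydrin, differed by -2.04. COR15A and RD29A differed by -1.67 and -1.52, but by 3.29 and 3.56 between the arrested arrays.

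Other genes of hormone and senescence lists were lower singly. GH3.5, an auxin-conjugating enzyme, read 8.57 in the sterile and 11.43 in the fertile inflorescence, against 11.93 and 12.48 in arrested and 9.22 to 10.00 after fruit removal. NAP, a NAC factor of senescence, read 7.21 in the sterile and 9.66 in the fertile array, against 11.81 and 12.12 in arrest. HIS1-3, a linker histone induced by stress, read 5.18 in the sterile and 8.03 in the fertile array, against 11.63 and 12.11 in arrest. These 3 genes had the order arrested, fertile growing, sterile growing. FSD1, an iron superoxide dismutase, read 4.11 in the sterile and 7.10 in the fertile array, both below the 9.74 to 12.18 of all other inflorescence arrays. JAR1, which conjugates jasmonate to isoleucine, differed by -2.37. SAG12, a late senescence marker, read 5.75 in the sterile and 5.49 in the fertile array. Both values lay under the floor of 5.88, so this gene gives no reading of late senescence.

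DNA replication genes were higher in the sterile inflorescence. Of 20 members, 15 were at least 2-fold higher and 0 lower, all 15 beyond their largest replicate difference, with a median of 1.23. MCM7, a subunit of the replicative helicase listed as PRL in the gene table, read 11.24 in the sterile and 8.96 in the fertile array, a 4.86-fold difference. PCNA1, the sliding clamp, read 10.41 in the sterile and 8.76 in the fertile array. TSO2, a ribonucleotide reductase subunit, read 11.49 in the sterile and 10.15 in the fertile array. The sterile values of all 3 genes were the highest of the 10 inflorescence arrays, and the fertile values lay above both arrested arrays.

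Other replication genes differed by smaller amounts than MCM7. Among helicase subunits, MCM2 differed by 1.27, MCM3 by 1.25, MCM5 by 1.2 and MCM4 by 0.95. The origin proteins ORC6, ORC2 and CDC6 differed by 1.44, 1.17 and 1.16, and the licensing factor CDT1A by 1.21. RPA70D, a single-strand binding subunit, differed by 1.84, PCNA2 by 1.59, and the polymerase alpha subunit ICU2 by 1.29. PCNA1 and PCNA2 are near-identical in sequence, so their probes may share signal. The chromatin assembly subunits FAS1 and FAS2 stood apart at 0.18 and -0.21.

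Mitotic genes shared the direction with smaller differences. Of 21 members, 6 were at least 2-fold higher in the sterile inflorescence and 0 lower, with a median of 0.79. HIK, a kinesin of cytokinesis, read 9.02 in the sterile and 7.82 in the fertile array, and TPX2, a spindle assembly factor, read 9.67 in the sterile and 8.49 in the fertile array. CYCB1;1, the B-type cyclin used to mark mitosis, differed by 0.81. KN, the syntaxin of the cell plate, differed by 0.79, and the kinases CDKB2;1 and CDKB2;2 by 0.26 and 0.34, near the median of all loci. Arrested arrays read 5.41 and 5.73 for HIK and 5.73 and 6.18 for TPX2, below both growing arrays.

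Of 18 core and linker histone genes, 4 were at least 2-fold higher in the sterile inflorescence, 2 were lower and 12 lay within 2-fold. The list median was 0.72, and 15 members lay above the 0.25 of all loci. HTB2 and HTB11, H2B genes, differed by 1.31 and 1.14, and HTA10 and HTA3, H2A genes, by 1.18 each. HTA11, HTA8, HTA13 and HTA6 differed by 0.99, 0.89, 0.84 and 0.79. HTA2, HTB4, HTA1 and HTA7 differed by 0.51, 0.41, 0.39 and 0.27, closer to the 0.25 of all loci. HTA12 and HTA9 had the opposite sign at -1.23 and -0.93, as did HIS1-3. Histone genes have many similar copies, and their probes may share signal. Meiosis genes were near the background, with 1 of 16 at least 2-fold higher. DMC1, the meiotic recombinase, read 9.07 in the sterile and 9.31 in the fertile array, and MND1, its partner, 7.97 in the sterile and 6.97 in the fertile array.

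Photosynthesis genes were slightly lower in the sterile inflorescence in 22 of 23 cases, with a median of -0.54 and 2 members past 2-fold. LHCA4, a light-harvesting protein of photosystem I, read 12.06 in the sterile and 13.35 in the fertile array. The arrested arrays read 13.22 and 13.90 for this gene, so the fertile value lay among them and the sterile value below. RCA, the activase of Rubisco, differed by -0.38.

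Indolic glucosinolate genes, which build tryptophan-derived defence compounds, were higher in the sterile inflorescence. Of 18 members, 10 were at least 2-fold higher and 0 lower, all 10 beyond their largest replicate difference. CYP83B1, which oxidises the aldoxime intermediate, read 10.82 in the sterile and 8.09 in the fertile array. CYP79B2 and CYP79B3, which make that aldoxime from tryptophan, read 7.95 and 7.91 in the sterile array against 5.67 and 5.82 in the fertile array. SOT16, the sulfotransferase of the last core step, read 10.97 in the sterile and 8.76 in the fertile array. For CYP83B1, CYP79B3 and SOT16 the sterile value was above every array after fruit removal and the fertile value below both arrested arrays. For CYP79B2 the sterile value lay among the arrays after fruit removal and the fertile value between the arrested arrays.

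Other steps of the pathway differed by varied amounts. SUR1 and UGT74B1, further core enzymes, differed by 1.89 and 1.19, and MYB34, a regulator of the pathway, by 1.85. MYB34 read 6.32 in the sterile and 4.47 in the fertile array, both below the array medians. Its fertile value lay under the floor, so the size of its difference depends in part on a low value. The other regulators MYB51 and MYB122 read 5.12 and 4.25 in the sterile array against 5.39 and 3.83 in the fertile array, all far below the array medians. With low values raised to the floor, the median of the indolic list moved from 1.16 to 0.58. Of the side-chain oxidases, CYP81F4 differed by 1.91, CYP81F1 by 1.21, CYP81F3 by 1.13 and CYP81F2 by -0.34. Tryptophan synthesis genes ASA1 and TSA1 differed by 0.61 and 0.56, and the glutathione transferases GSTF9 and GSTF10 by 0.44 and -0.33. Aliphatic glucosinolate genes were at least 2-fold higher in 3 of 10 cases, none beyond the replicate spread. SOT17 differed by 1.56, BCAT4 by 1.08 and CYP83A1 by 1.05.

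**Figure D4:**
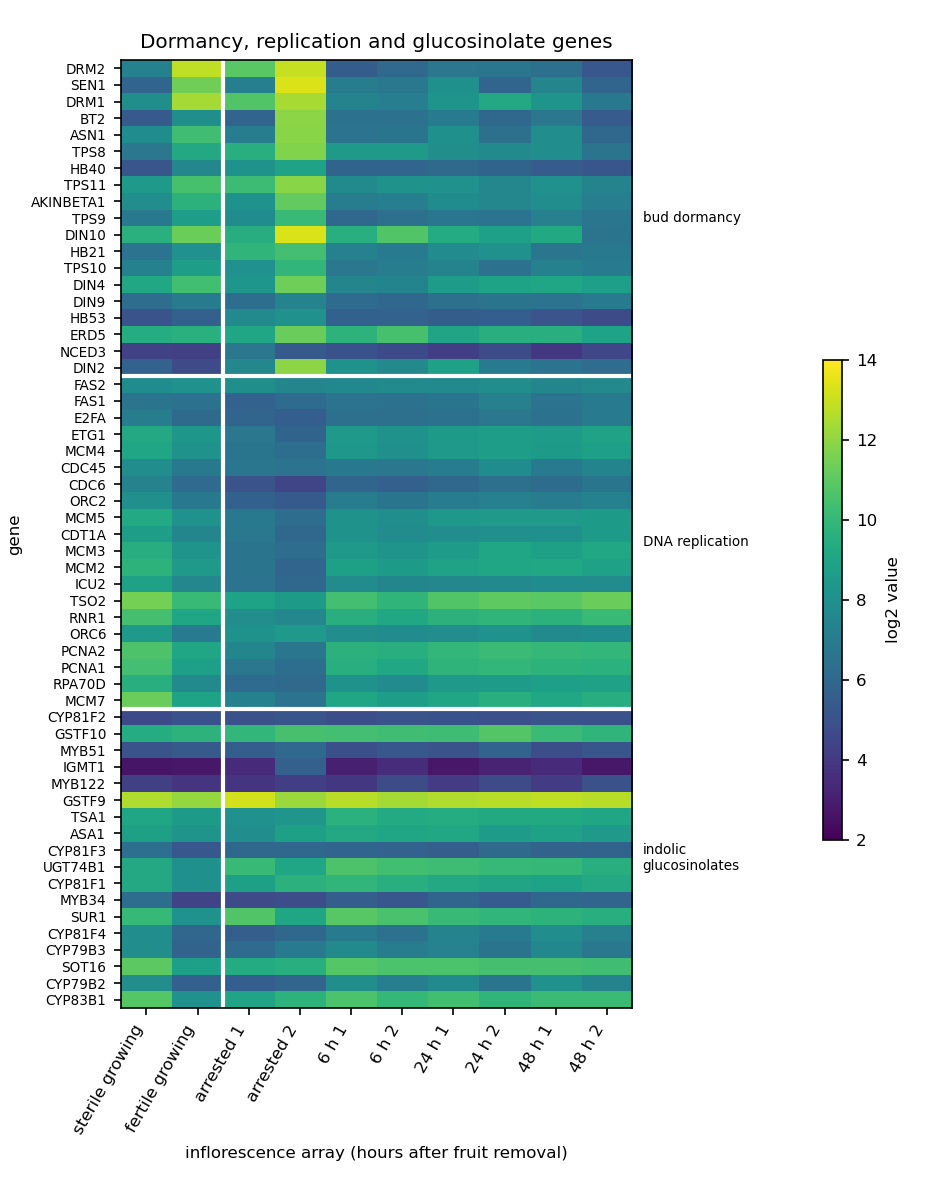
Colour gives the log2 value of each dormancy, DNA replication and indolic glucosinolate gene (vertical axis) in the 10 inflorescence arrays (horizontal axis), with the sterile and fertile growing arrays left of the white line. DRM1 and DRM2 are bright in the fertile and both arrested arrays, and most replication genes and CYP83B1 are brighter in the sterile than in the fertile array.

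Genes of jasmonate synthesis were higher in part. LOX2, a lipoxygenase, read 12.88 in the sterile and 11.38 in the fertile inflorescence. AOS, the allene oxide synthase, read 8.09 in the sterile and 6.69 in the fertile array, and OPR3, a reductase of the same pathway, 8.94 in the sterile and 7.74 in the fertile array. JAZ5, a repressor induced by jasmonate, read 8.38 in the sterile and 6.39 in the fertile array. Of 25 members of the jasmonate list, 7 were at least 2-fold higher in the sterile array and 1 lower. The other measured JAZ repressors had both signs. JAZ8, JAZ7, JAZ1, JAZ6 and JAZ10 differed by 1.0, 0.61, 0.57, 0.4 and 0.11. JAZ3, JAZ2, JAZ9 and JAZ12 differed by -0.05, -0.57, -0.61 and -0.96.

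The largest positive difference of all loci was that of BAM5, a beta-amylase of the phloem. It read 10.33 in the sterile and 6.25 in the fertile array, a 16.9-fold difference, against 4.73 and 5.32 in arrested arrays and 10.99 to 12.04 after fruit removal. No other beta-amylase of the list shared the 4-fold difference, with -1.35 for BAM4 and -0.88 for BAM1. FH3, a formin, is the neighbour of BAM5 on chromosome 4 and read 8.36 in the sterile and 4.80 in the fertile array, against 5.39 and 5.53 in arrest and 8.05 to 9.25 after fruit removal. The level of both neighbours was low in the fertile and arrested arrays and high in the sterile array and after fruit removal.

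Several further genes were high in the sterile array and low to intermediate in the fertile array. CSLA01 and CSLA10, members of the mannan synthase family, read 10.80 and 10.19 in the sterile array against 7.89 and 7.64 in the fertile array, with 5.29 to 5.87 in arrest. JAL23, a jacalin-like lectin, read 8.54 in the sterile and 5.19 in the fertile array. XTH16, a xyloglucan-modifying enzyme, differed by 2.21 and FAF2, of a small plant family that acts in the shoot meristem, by 2.14. GPT2, a plastid glucose phosphate transporter, read 9.45 in the sterile and 5.94 in the fertile array, but 8.71 and 8.68 in arrest. In GPT2 the fertile growing array was the lowest of all 10 inflorescence arrays.

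Counts over all loci show how far the lists coincided. Fruit removal was set against arrest with arrays that the sterile and fertile comparison does not use. Of the 64 loci at least 4-fold higher in sterile plants, 17 (26.6%) were also at least 4-fold higher 6 h after fruit removal than in arrest, which is 10.4% of the 163 such loci (0.769% of all). At 24 h the count was 21 (32.8% of the 64 and 10.2% of 206, which is 0.972% of all), and at 48 h it was 22 (34.4% of the 64 and 5.1% of 431, which is 2.03% of all). Of the 253 loci lower in sterile plants, 51 were lower at 6 h than in arrest, which is 18.7% of 273 (1.29% of all), and 45 were lower at 24 h, which is 16.1% of 279 (1.32% of all). At 48 h the 253 loci split, with 66 lower than in arrest (26.1%, among 2.49% of all) and 59 higher (23.3%, among 2.03% of all).

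Some genes were high in 1 inflorescence array alone. DDB1B, a copy of the DDB1 adaptor of ubiquitin ligases, read 8.74 in the sterile and 4.85 in the fertile inflorescence, and 4.70 to 5.44 in the other 8 arrays. CYP82C2, a cytochrome P450, read 7.56 in the sterile and 4.08 in the fertile array, and 3.42 to 4.2 in the others. LCR67, a defensin-like peptide, read 4.62 in the sterile and 9.28 in the fertile array, and 4.24 to 4.72 in the others. Of the 10 inflorescence arrays, DDB1B and CYP82C2 were thus high in the sterile one only, and LCR67 in the fertile one only. DDB1A, the paralogue of DDB1B, differed by -0.14.

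Of the 17 heat shock genes, 4 were at least 2-fold higher in the sterile inflorescence and 0 lower, and the regulators HSFA2 and MBF1C led them. HSFA2, a heat stress factor, read 9.18 in the sterile and 6.08 in the fertile inflorescence, against 5.77 to 6.63 in the others. MBF1C, a coactivator of the heat response, read 11.22 in the sterile and 8.72 in the fertile array, against 7.56 to 9.47 in the others. The sterile array was the highest in both cases. The chaperones HSP101 and HSP18.2 differed by 1.12 and 1.04, and HSP90.1, HSP21 and HSP17.6A by 0.11, 0.78 and 0.59.

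Dissected meristems of sterile and fertile plants differed at fewer loci than whole inflorescences. At least 2-fold differences were found at 219 higher loci (1.03%) and 153 lower loci (0.722%). At least 4-fold differences were found at 20 higher loci (0.0944%) and 12 lower loci (0.0566%), and the median difference was 0.03. The median meristem difference was 0.17 for pollen coat proteins, -0.04 for DNA replication, -0.20 for dormancy and 0.02 for indolic glucosinolate genes. Replication genes were near equal there, with MCM7 at 11.56 in the sterile and 11.39 in the fertile meristem. BAM5 read 5.65 in the sterile and 4.92 in the fertile meristem. Across loci the differences in the 2 tissues correlated at 0.10. These meristem arrays were amplified in another way, so levels are not set against those of inflorescences gene by gene.

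A small set of loci did differ in both tissues. At least 2-fold differences in both were found at 98 of 21195 loci, of which 36 were higher in both, 29 lower in both and 33 opposite. In inflorescences alone, 10.4% of all loci differed at least 2-fold either way. Low values were not filtered from the 98. Among them are AT1G36560, at 1.23 in the sterile and 0.0 in the fertile inflorescence, and AT4G08100, at 0.0 and 1.86. The split by direction therefore rests in part on values that carry little order. For 3 loci the difference was at least 4-fold the same way in both, and in 2 of these the higher value of each pair lay above its array median. DDB1B read 8.34 in the sterile and 5.21 in the fertile meristem, a difference of 3.13 beside 3.89 in inflorescences. LTI30 differed by -3.72 in meristems and by -3.93 in inflorescences. HSFA2 differed by 1.37 in meristems. DRM2 and SEN1 differed by -1.55 and -1.20 there, while DRM1 differed by 0.04.

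**Figure D5:**
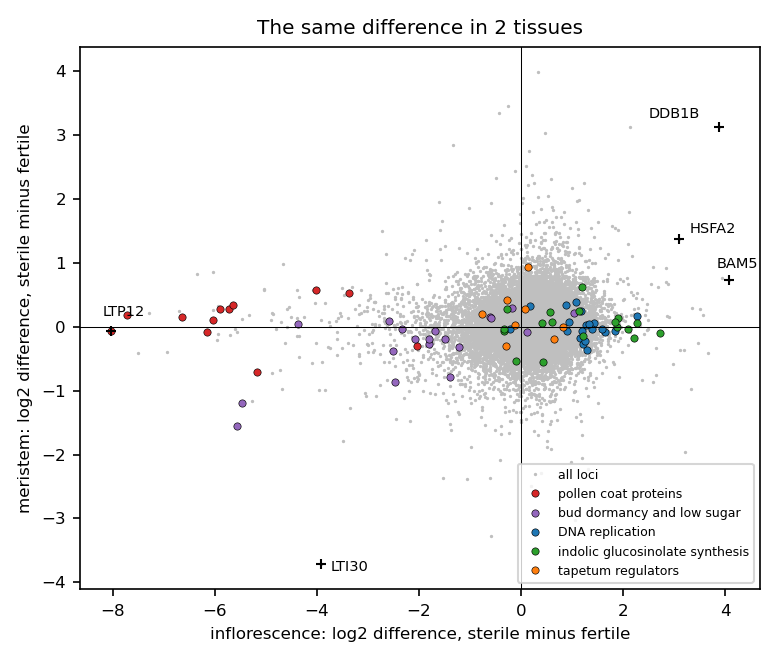
Each point is 1 locus, with its log2 difference (sterile minus fertile) in inflorescences on the horizontal axis and in dissected meristems on the vertical axis (1 array for each plant type and tissue). Pollen coat, replication and glucosinolate genes spread along the horizontal axis, whereas DDB1B and LTI30 differ in both tissues.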

How the data were processed

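Affymetrix arrays were hybridised with RNA of pooled inflorescences after 3′ IVT labelling, per the labels' protocols, and meristem RNA was amplified first. The deposited value table gives 1 normalized log2 value per locus and array. The log2 scale was read from the value range of 0 to 14.13. The authors' normalization is not given in the sources at hand. Of 21253 value rows, 58 control rows were left out. Names came from RefSeq genes (TAIR10.1), which matched 21097 loci and not 98.

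Differences were taken between 1 sterile and 1 fertile array with Python 3.11.15, pandas 2.3.3 and numpy 2.4.6, without further normalization and without a test. The calculation was tested on simulated data. The number of arrays limits the precision. Replicate spread came from 4 groups of 2 arrays. Sample titles carry a code, r9 for the sterile and r13 for the fertile inflorescence, which no source used here explains.

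The 28 gene lists, drawn up by hand, held 519 entries. Values were found for 466 of them, 40 were without a value and 13 were left out because RefSeq names the locus otherwise. The members and lists were chosen with earlier results of these data known. Named genes were the 20 largest differences in each direction among loci with a symbol, with the higher value above its array median and with a difference beyond the largest replicate difference. Up to 5 members of each list with the largest difference were named as well, and all members of the tapetum, pollen coat, phenolamide and sporopollenin lists could be named. Other named members were chosen after their values were seen. Counts at 2-fold, quantile normalization, centring, a floor and a filter on low values were tried as alternatives. No sequence was used here, so promoters were not searched.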

Additional observations from a re-analysis of the deposited data

Results flagged for a closer look

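Among the 317 loci with at least 4-fold differences between inflorescences, 7 had the opposite direction by at least 2-fold in meristems. Each value rests on 1 array a side, and the difference between the tissues was not tested. Unnamed locus AT1G36130 differed by 3.21 in inflorescences and by -1.96 in meristems, with a fertile inflorescence value listed at 0. Another 6 loci were lower in the sterile inflorescence and higher in the sterile meristem. SK9, an ASK-like gene, differed by -2.65 and 1.14, and GRP-3, a glycine-rich protein gene, by -2.18 and 1.05. AT5G62080 differed by -2.72 and 1.5, AT5G14995 by -2.27 and 1.08, AT1G12570 by -2.14 and 1.13, and AT1G06990 by -2.1 and 1.2. SK9 read 0.0 in the sterile and 2.65 in the fertile inflorescence, and its largest replicate difference was also 2.65. AT5G14995 read 1.13 in the sterile and 3.4 in the fertile inflorescence. The inflorescence values of AT1G36130, SK9 and AT5G14995 all lay under the floor of 5.88, where values carry little order.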

How the results depend on the processing

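The count of loci at least 4-fold higher in the sterile inflorescence moved from 64 to 36 with values under the 25th percentile (5.88) raised to it, to 40 where the higher value had to exceed its array median, and to 1294 at 2-fold. The count of lower loci moved from 253 to 903 at 2-fold. The cause was not tested beyond the construction of these settings. Quantile normalization gave 45 higher and 289 lower loci, centring 52 and 282, the floor 36 and 220, and loci beyond the replicate spread 58 and 227. All 45, 52 and 36 higher loci were among the 64, and 249, 253 and 220 of the 253 lower loci stayed lower. Among 28 list medians, quantile normalization moved 9, centring 4 and the floor 6 by more than the replicate spread. Among 484 gene differences the same settings moved 87, 30 and 51. No paired analysis was possible because each side is 1 array and the titles share no replicate number. For the same reason no array could be left out. Values below about the 25th percentile carry little order, and folds against them are given as lower bounds.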

Other observations

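Some gene groups of the growing inflorescence differed little or only at single members. Floral organ identity and ovule genes had 1 of 16 members at least 2-fold lower in the sterile inflorescence and 0 higher. AG, the MADS-box gene of stamens and carpels, read 8.65 in the sterile and 9.98 in the fertile array, and AP3, a gene of petals and stamens, 10.12 in the sterile and 11.08 in the fertile array. Ovule genes had the other sign, with 0.96 for STK, 0.58 for SHP1 and 0.39 for SHP2. WUS, the stem cell organiser that is also expressed in stamens and ovules, read 6.13 in the sterile and 7.79 in the fertile array, against 4.03 to 6.76 in the other inflorescence arrays. CLV3, its signal partner, read 5.22 in the sterile and 4.96 in the fertile array. CUC3, an organ boundary gene, differed by 1.08 and STM, a meristem maintenance gene, by 0.65.

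Auxin genes had both directions. TAA1, an auxin synthesis enzyme, read 9.16 in the sterile and 7.83 in the fertile inflorescence. The response genes IAA19, IAA2, IAA4 and IAA7 differed by -1.48, -1.42, -1.25 and -1.20. Among cytokinin response regulators, ARR15 differed by 1.62 and ARR16 by -1.66. In the flavonoid list, TT19, an anthocyanin transfer protein, read 10.16 in the sterile and 7.28 in the fertile array, but 10.12 and 6.67 in the 2 arrested arrays. STP1, a hexose transporter, read 8.52 in the sterile and 11.12 in the fertile array, and 9.62 and 13.01 in the arrested arrays. LHY, a morning clock gene, differed by 1.04 and PRR5, which acts later in the day, by -1.25, while TOC1, GI and CCA1 differed by -0.26, -0.20 and -0.18. Both growing arrays stood apart from the other 8 inflorescence arrays for CCA1 (5.75 and 5.93 against 8.42 to 10.5). The same held for LHY and for TOC1 (9.19 and 9.45 against 6.95 to 8.71), but not for GI. The part of this clock difference in other levels set side by side across these arrays was not tested.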
